A study of Homo sapiens with 8 samples.

Results

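The C/D snoRNAs carried inside long non-coding RNA (lncRNA) genes were examined in iCLIP libraries of dyskerin and GAR1 from U2OS cells. The members were the snoRNA genes of GENCODE 44 with a symbol of SNORD and a digit that lie wholly inside a lncRNA gene on the same strand and inside no protein-coding gene of that strand. SNORD5, SNORD6, SNORD99, SNORD13, SNORD118 and the SNORD3 copies were left out by name. This gave 147 members of 313 such snoRNA genes and of 62700 genes in all, by a rule that uses annotation only. Their hosts were few. SNHG14 held 81, MEG8 40, SNHG1 7, and ZFAS1, SNHG29 and SNHG16 held 3 each. SNHG32 held 2, while SNHG6, SNHG25, SNHG26, SNHG19, SNHG30, SNHG18, MIR31HG and an unnamed lncRNA held 1 each. GENCODE 44 has no snoRNA entry inside GAS5, so the GAS5 snoRNAs are not among the members and are given separately below from RefSeq coordinates.

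U2OS cells are an established line from a human bone tumour. For iCLIP, ultraviolet light was used because it fixes proteins to the RNA they touch, and the cDNA made after immunoprecipitation usually ends next to the fixed nucleotide. The tested groups were nuclear extracts precipitated with a mouse antibody against dyskerin or with a rabbit antibody against GAR1, with 2 libraries each, and the controls were mouse IgG, with 2 libraries in a set labelled for dyskerin and 2 in a set labelled for GAR1. The IgG was therefore not of the species of the GAR1 antibody. The study speaks of independent experiments but the labels do not say whether replicates were separate cultures, so p-values measure only the spread between these libraries, which may be technical.

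C/D snoRNAs are short nucleolar RNAs named after box C and box D, motifs near their ends that come together when the RNA folds. They are bound by SNU13, NOP56, NOP58 and the methyltransferase fibrillarin, and they guide 2′-O-methylation by pairing with ribosomal or spliceosomal RNA. Dyskerin and GAR1 belong to the other class of particle, which is built on H/ACA snoRNAs and makes pseudouridine, and C/D snoRNAs are not their usual partners. In vertebrates most snoRNAs are cut from introns, and hosts such as SNHG1 and GAS5 encode no known protein.

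The sequences of the members on which the results turn are shown 5′ to 3′ as DNA letters of GRCh38, with a TGATGA match (box C) and the last CTGA match (box D) in capitals. The 6 SNHG1 snoRNAs with signal come first, because they carried the largest part of the cDNAs, and all lie on the minus strand of chromosome 11 between 62852910 and 62855632.
SNORD27: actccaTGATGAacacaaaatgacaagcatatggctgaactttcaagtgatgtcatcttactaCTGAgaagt
SNORD26: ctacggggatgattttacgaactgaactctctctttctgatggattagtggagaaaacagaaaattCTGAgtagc
SNORD25: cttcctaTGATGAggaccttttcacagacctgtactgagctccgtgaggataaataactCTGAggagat
SNORD22: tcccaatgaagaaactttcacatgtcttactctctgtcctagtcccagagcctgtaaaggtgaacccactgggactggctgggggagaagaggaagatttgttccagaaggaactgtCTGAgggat
SNORD28: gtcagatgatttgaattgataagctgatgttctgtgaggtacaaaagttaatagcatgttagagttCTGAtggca
SNORD30: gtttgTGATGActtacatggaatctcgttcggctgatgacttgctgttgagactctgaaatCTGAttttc
SNORD26, SNORD22 and SNORD28 show no TGATGA, only related letters. The leading members of other hosts are SNORD52 of SNHG32 (chr6:31837076-31837142, plus strand), SNORD93 of SNHG26 (chr7:22856613-22856686, plus strand), SNORD104 of SNHG25 (chr17:64146083-64146152, plus strand), SNORD60 of SNHG19 (chr16:2155023-2155105, minus strand), SNORD12C of ZFAS1 (chr20:49278940-49279028, plus strand) and SNORD65 of SNHG29 (chr17:16441226-16441298, plus strand).
SNORD52: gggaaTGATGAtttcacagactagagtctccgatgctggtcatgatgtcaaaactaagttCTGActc
SNORD93: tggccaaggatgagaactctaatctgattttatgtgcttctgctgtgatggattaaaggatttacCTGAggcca
SNORD104: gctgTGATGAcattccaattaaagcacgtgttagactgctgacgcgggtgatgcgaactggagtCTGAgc
SNORD60: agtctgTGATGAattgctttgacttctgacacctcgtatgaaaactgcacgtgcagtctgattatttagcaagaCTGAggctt
SNORD12C: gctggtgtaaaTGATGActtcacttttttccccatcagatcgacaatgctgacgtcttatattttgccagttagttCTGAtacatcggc
SNORD65: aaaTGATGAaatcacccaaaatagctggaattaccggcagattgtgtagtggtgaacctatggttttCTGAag
Copies of SNORD116 in SNHG14 on chromosome 15 resemble each other, as SNORD116-26 (chr15:25099499-25099594) and SNORD116-24 (chr15:25094037-25094128) show.
SNORD116-26: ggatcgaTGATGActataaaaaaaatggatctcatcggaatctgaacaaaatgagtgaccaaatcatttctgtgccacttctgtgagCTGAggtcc
SNORD116-24: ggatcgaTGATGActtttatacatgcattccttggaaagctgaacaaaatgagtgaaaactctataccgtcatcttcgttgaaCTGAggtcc

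On the strand of the RNA, CTGA was found in 146 of the 147 members and TGATGA in 122. Asking for TGATGA in the first 20 bases and CTGA in the last 15 left 116 members (78.9%), against 67 of 122 C/D snoRNAs in protein-coding hosts (54.9%), 0 of 37 H/ACA snoRNAs in lncRNA hosts and 1 of 147 windows of the same lengths taken 200 bases downstream (0.68%). Most members are repeated copies in SNHG14 and MEG8, and outside these hosts 17 of 26 members had both (65.4%). On the opposite strand of the members both were found in 0 of 147. The letters of the motifs can overlap, and a match is a description only. Members were 59 to 126 nt long, with a median of 82 nt.

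The libraries differed widely in what passed site calling. Peak cDNAs, meaning the cDNAs at significant crosslink sites, numbered 1693951 and 1875459 for dyskerin, 585454 and 1976518 for GAR1, 146514 and 8183 for the IgG set of dyskerin and 295255 and 10701 for the IgG set of GAR1. Replicate 2 of each IgG set was therefore shallow, and 3 counts corresponded there to 367 and 280 cDNAs per 1000000 peak cDNAs (CPM), against 1.52 to 20.5 CPM in the other 6 libraries. The sites were called in each library by itself, so a member at 0 may only have missed the call. Of 8 markers of mesenchymal and osteoblast cells, 5 (VIM, COL1A1, SPARC, RUNX2 and FN1) had cDNAs in both dyskerin libraries and COL1A2, SPP1 and ALPL had none in any library, while of 7 markers of other lineages 0 and 1 had a site in the dyskerin libraries. In the GAR1 libraries 0 and 4 of the 8 markers had a site, in the IgG set of dyskerin 5 and 0, and in the IgG set of GAR1 none. Of the 7 markers of other lineages, 0 and 1 had a site in the GAR1 libraries and none in the IgG libraries. The 1 was CDH1, with 5 cDNAs in GAR1 replicate 2, as many as SPARC had there.

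Signal in the members was concentrated in a few housekeeping snoRNAs, and the long imprinted clusters carried almost none. Sites were found in 54 of the 147 members, and 31 members had at least 10 cDNAs in at least 2 libraries and entered the tests. These 31 held 90906 cDNAs, while the 23 others with a site held 451 and 93 members had none. At the edge of that filter, SNORD116-16 entered with 69 cDNAs in all and SNORD116-1 stayed out with 96, because only 1 library gave it 10. In the 8 libraries the members held 14546 and 12200 cDNAs for dyskerin, 14187 and 44577 for GAR1, 884 and 80 for the IgG set of dyskerin and 4778 and 105 for the IgG set of GAR1. The 10 leading members of each library took 74.6 to 79.3% of these in the dyskerin libraries, 77.0 and 74.1% in the GAR1 libraries and 81.9 to 98.8% in the IgG libraries.

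SNHG1 was the leading host, with 52.1 and 48.1% of the members' cDNAs in the dyskerin libraries, 43.0 and 41.2% in the GAR1 libraries, 57.5 and 68.8% in the IgG set of dyskerin and 48.5 and 40% in the IgG set of GAR1. Both dyskerin libraries lay above both GAR1 libraries, and the IgG sets were apart in the same direction. These shares were not tested. SNORD26, a guide for 28S rRNA, had 887 and 675 CPM with dyskerin, 2176 and 2406 with GAR1, 785 and 1833 with the IgG of the dyskerin set and 1765 and 841 with the IgG of the GAR1 set. SNORD22 had 690 and 551 CPM with dyskerin, 2335 and 2136 with GAR1, 580 and 1466 with the IgG of the dyskerin set and 1958 and 1495 with the IgG of the GAR1 set. For both RNAs the GAR1 libraries were highest, and the dyskerin libraries lay within or near the range of their own IgG.

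SNORD27, a guide for 18S rRNA, had 1338 and 923 CPM with dyskerin, 1811 and 1276 with GAR1, 894 and 2688 with the IgG of the dyskerin set and 1040 and 467 with the IgG of the GAR1 set. It was the leading member of both dyskerin libraries, with 2266 and 1731 cDNAs, and the only tested member whose dyskerin and GAR1 libraries overlapped. SNORD25, another guide for 18S rRNA, had 786 and 422 CPM with dyskerin, 2236 and 1835 with GAR1, 1078 and 733 with the IgG of the dyskerin set and 2076 and 561 with the IgG of the GAR1 set. SNORD30, a guide for 28S rRNA, followed at 508 and 303 CPM with dyskerin, 1261 and 913 with GAR1, 130 and 0 with the IgG of the dyskerin set and 837 and 561 with the IgG of the GAR1 set.

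SNORD28 stood apart from its SNHG1 neighbours. It had 446 and 479 cDNAs with dyskerin, 352 and 1436 with GAR1, 0 and 0 with the IgG of the dyskerin set and 50 and 0 with the IgG of the GAR1 set. In CPM these were 263 and 255 with dyskerin, 601 and 727 with GAR1, 0 and 0 with the IgG of the dyskerin set and 169 and 0 with the IgG of the GAR1 set. Of its 3 IgG libraries at 0, only replicate 1 of the dyskerin set, where SNORD26 had 115 cDNAs, was deep enough for 3 counts to lie below the dyskerin values. They correspond to 20.5 CPM there and to 367 and 280 CPM in the others. Set against a floor of 3 counts over the IgG group, dyskerin was 12.0-fold higher on the TMM scale, the edgeR scaling that assumes most genes unchanged, and 13.4-fold higher per peak cDNA. IgG cDNAs at sites that missed the call could exceed this floor, so neither value is a strict lower bound. The edgeR quasi-likelihood test of this difference gave an adjusted p of 0.215. The other gene named SNORD22 inside SNHG1 (ENSG00000278527) had no cDNA in any library.

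Outside SNHG1, the member of highest mean CPM over the 8 libraries was SNORD87 of SNHG6, a guide for 28S rRNA, with 406 and 351 CPM for dyskerin, 2000 and 2018 for GAR1, 362 and 367 for the IgG of the dyskerin set and 1595 and 1028 for the IgG of the GAR1 set. With dyskerin alone SNORD104, SNORD52, SNORD60 and SNORD12C of other hosts had a higher mean than SNORD87. SNORD52 of SNHG32 had 677 and 367 CPM with dyskerin, 2186 and 1174 with GAR1, 655 and 489 with the IgG of the dyskerin set and 1521 and 561 with the IgG of the GAR1 set. SNORD93 of SNHG26, a guide for 18S rRNA, had 463 and 280 CPM with dyskerin, 1384 and 1531 with GAR1, 280 and 367 with the IgG of the dyskerin set and 854 and 1215 with the IgG of the GAR1 set. In SNORD87 and SNORD93 both IgG libraries of the GAR1 set also lay above both of the dyskerin set, while in SNORD52 the IgG sets overlapped.

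SNORD104 of SNHG25, a guide for 28S rRNA, had 613 and 537 CPM with dyskerin, 1341 and 1619 with GAR1, 471 and 0 with the IgG of the dyskerin set and 1006 and 654 with the IgG of the GAR1 set. SNORD60 of SNHG19, also a guide for 28S rRNA, had 443 and 339 CPM with dyskerin, 1942 and 1437 with GAR1, 212 and 0 with the IgG of the dyskerin set and 908 and 561 with the IgG of the GAR1 set. SNORD65 of SNHG29, a guide for 18S rRNA, had 200 and 184 CPM with dyskerin, 996 and 882 with GAR1, 143 and 611 with the IgG of the dyskerin set and 491 and 187 with the IgG of the GAR1 set. The zeros fell in the IgG library where the floor of 3 counts corresponds to 367 CPM, which is above 1 of the dyskerin values of SNORD60.

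The 3 ZFAS1 snoRNAs, SNORD12, SNORD12B and SNORD12C, are close relatives in sequence and differed in level. SNORD12C averaged 390 ± 4.7 CPM with dyskerin and 1169 ± 148 with GAR1, SNORD12 193 ± 19.8 and 702 ± 32.0, and SNORD12B 165 ± 56.3 and 436 ± 143 (mean ± SD, n = 2 each). In the GAR1 libraries the order SNORD12C, SNORD12, SNORD12B held without overlap. The SNHG16 snoRNAs SNORD1A, SNORD1B and SNORD1C averaged 103 ± 31.2, 110 ± 4.3 and 70.6 ± 23.7 CPM with dyskerin and 382 ± 6.4, 358 ± 0.7 and 265 ± 43.0 CPM with GAR1. SNORD1A and SNORD1B did not differ beyond their spread with dyskerin. SNORD1B and SNORD1C had no cDNA in the IgG set of dyskerin. Against the same floor of 3 counts, dyskerin was 5.09-fold and 3.24-fold higher on the TMM scale, without passing the test (adjusted p of 0.223 and 0.285, edgeR). SNORD48 and SNORD49A, the partners of SNORD52 and SNORD65 in their hosts, averaged 107 ± 27.9 and 64.1 ± 9.7 CPM with dyskerin and 287 ± 106 and 256 ± 83.6 with GAR1.

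The members with the weakest signal that still entered the tests were SNORD7, a guide for U6 snRNA, SNORD49B, SNORD123 and 8 copies of SNORD116. SNORD7 of SNHG30 had 45 and 50 cDNAs with dyskerin, 33 and 148 with GAR1, none with the IgG of the dyskerin set and 9 and 0 with the IgG of the GAR1 set. SNORD123 of SNHG18 had 11 and 16 cDNAs with dyskerin, 21 and 75 with GAR1, 2 and 0 with the IgG of the dyskerin set and none with the IgG of the GAR1 set. SNORD39 of MIR31HG had 9 and 6 cDNAs with dyskerin and none elsewhere. The rest of the MIR31HG gene held 1317 and 1057 cDNAs with dyskerin and 3 and 1 with GAR1. It held 133 and 0 with the IgG of the dyskerin set and none with the IgG of the GAR1 set. Among hosts with cDNAs, MIR31HG was the only one whose members together made up under 1% of the locus in the dyskerin libraries (0.679 and 0.564%). SNORD28B, inside the unnamed lncRNA ENSG00000285797, had no cDNA.

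The repeated families of the imprinted regions had few cDNAs, and their RNA levels were not measured here. These families are expressed mainly in the brain, and SNORD116, which has no known rRNA target, lies in the region lost in Prader-Willi syndrome. Among 30 members named SNORD116, 21 had a site somewhere, and together they had 87 and 133 cDNAs with dyskerin, 97 and 805 with GAR1, none with the IgG of the dyskerin set and 38 and 0 with the IgG of the GAR1 set. SNORD115 (49 members) had 3 cDNAs in 1 GAR1 library and 2 in 1 IgG library of the GAR1 set. SNORD113 and SNORD114 (39 members in MEG8) had 4 and 0 cDNAs with dyskerin, 5 and 23 with GAR1 and none with IgG. Reads with several alignments could be counted at each copy, and 20 SNORD116 and 37 SNORD115 members have another locus of at least 95% identity over their full length, so their single values are uncertain. All 26 members outside SNHG14 and MEG8 are unique in the genome by that measure.

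**Figure D1:**
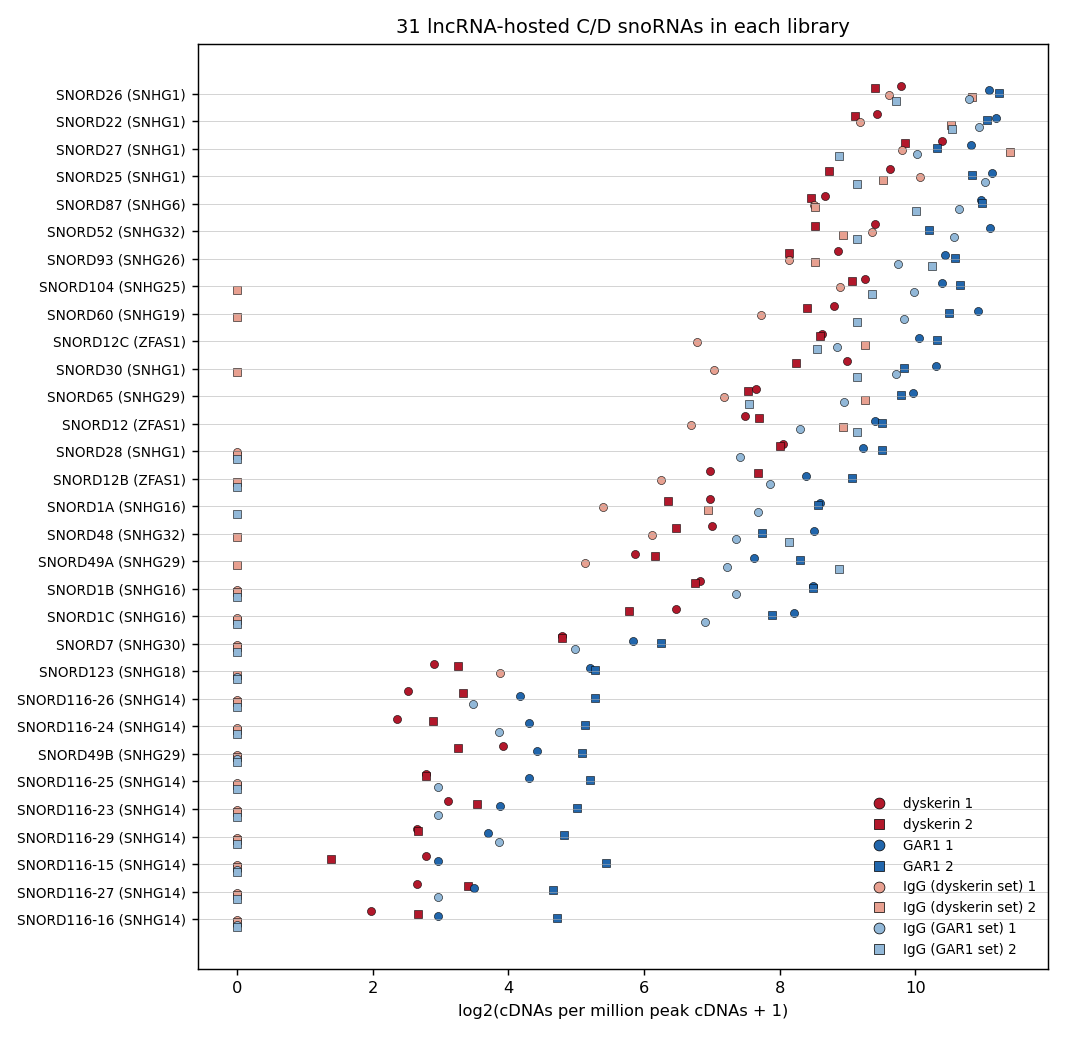
Level of the 31 tested members in each of the 8 libraries, as log2 of CPM + 1 on the x axis, with the host in brackets and rows ordered by mean CPM. Dark points are antibody libraries and pale points IgG libraries (circles replicate 1, squares replicate 2). GAR1 lay right of dyskerin in every row but SNORD27, and points at 0 are libraries without a site.

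The order of the members in dyskerin and GAR1 was compared by rank. Over the 31 tested members, Spearman's rho of the mean CPM was 0.952 between dyskerin and GAR1, 0.861 between dyskerin and its IgG and 0.943 between GAR1 and its IgG, against 0.960 and 0.953 between the replicates of dyskerin and of GAR1 and 0.774 and 0.851 between those of the IgG sets of dyskerin and of GAR1. These are descriptions over snoRNAs that share libraries, and the levels of the RNAs themselves were not measured here.

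The GAS5 snoRNAs, named only in RefSeq, spanned a wider range of levels than the SNHG1 members with signal. SNORD76, a guide for 28S rRNA, had 3648 and 2327 cDNAs with dyskerin, 2769 and 5194 with GAR1, 283 and 16 with the IgG of the dyskerin set and 954 and 30 with the IgG of the GAR1 set, which placed it above every member by mean CPM. SNORD80 and SNORD47 followed with 1377 and 1396 cDNAs in dyskerin replicate 1 and 4743 and 5140 in GAR1 replicate 2. SNORD77, the lowest of the 10, had 24 and 34 cDNAs with dyskerin and 10 and 511 with GAR1. The 10 GAS5 snoRNAs together held 0.547 and 0.379% of peak cDNAs with dyskerin, 1.68 and 1.33% with GAR1, 0.455 and 0.855% with the IgG of the dyskerin set and 1.33 and 0.748% with the IgG of the GAR1 set. In SNHG1, RefSeq adds SNORD31 and SNORD29, with 681 and 425 and with 489 and 413 cDNAs in the dyskerin libraries.

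Whether the antibodies enriched the members over IgG was asked first for the members as a class. Members held 0.859 and 0.651% of peak cDNAs with dyskerin, 2.42 and 2.26% with GAR1, 0.603 and 0.978% with the IgG of the dyskerin set and 1.62 and 0.981% with the IgG of the GAR1 set. The Wilson 95% intervals, which cover counting error only, reached from 0.786 to 1.22% in the shallowest IgG library and from 0.639 to 0.662% in dyskerin replicate 2. The antibody libraries averaged 1.55 ± 0.921% (SD, n = 4) and the IgG libraries 1.05 ± 0.421% (SD, n = 4), a difference of 0.502 percentage points (two-sided exact permutation test, p = 0.371, adjusted p = 0.743 over 4 such tests). The smallest p these 8 libraries allow is 0.0286. The dyskerin libraries lay inside the range of the IgG libraries and both GAR1 libraries lay above it, but with 2 libraries a group no permutation test of GAR1 alone can pass. The class is compared as shares of each library's own peak cDNAs, and fewer contacts cannot be told apart from more cDNAs on other RNAs.

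**Figure D2:**
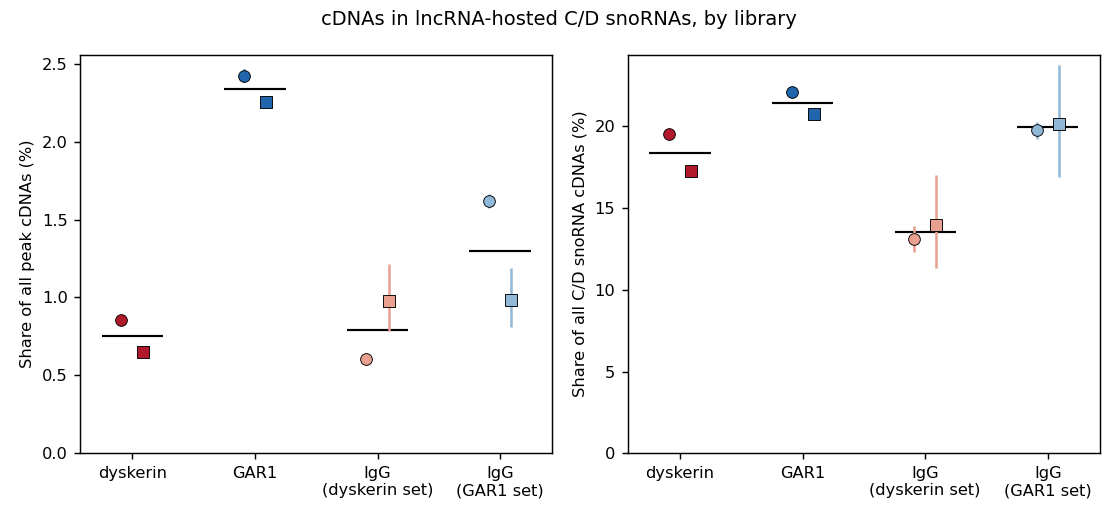
Share of cDNAs in the lncRNA-hosted C/D snoRNAs, in percent of all peak cDNAs (left) and of the cDNAs of all C/D snoRNAs (right). Points are libraries with Wilson 95% intervals and bars are means of 2 libraries. GAR1 lay highest on the left, while on the right the IgG of the GAR1 set (19.7 and 20.1%) lay level with the antibody libraries.

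Among the cDNAs of all 382 annotated C/D snoRNAs, members took 19.5 and 17.3% with dyskerin, 22.1 and 20.8% with GAR1, 13.1 and 14.0% with the IgG of the dyskerin set and 19.7 and 20.1% with the IgG of the GAR1 set. The antibody libraries averaged 19.9 ± 2.05% and the IgG libraries 16.7 ± 3.72% (SD, n = 4 each), and the difference of 3.18 points did not pass (two-sided exact permutation test, p = 0.229, adjusted p = 0.743). C/D snoRNAs in protein-coding hosts held 2.05 and 1.78% of peak cDNAs with dyskerin, 5.62 and 5.95% with GAR1, 1.64 and 2.19% with the IgG of the dyskerin set and 4.25 and 2.17% with the IgG of the GAR1 set. The ratio of group means was 0.955 for dyskerin over IgG and 1.80 for GAR1 over IgG in the members, against 1.00 and 1.80 in the C/D snoRNAs of protein-coding hosts and 0.406 and 1.06 in the H/ACA snoRNAs of lncRNA hosts. The last class held 1.87 and 2.37% of peak cDNAs with dyskerin, 11.3 and 11.3% with GAR1, 2.41 and 8.03% with the IgG of the dyskerin set and 11.7 and 9.75% with the IgG of the GAR1 set. These ratios were not tested against each other.

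Member by member, neither comparison with IgG called a gene. With edgeR's quasi-likelihood test on 6470 genes, 0 of 31 members passed an adjusted p of 0.05 for dyskerin against IgG (0% of all genes higher) and 0 of 31 for GAR1 against IgG (0% of all genes higher). At an unadjusted p under 0.05, 1 member (SNORD28) was higher with dyskerin, against 22.8% of all genes, and 21 were higher with GAR1, against 14.6% of all genes. The second count was 4 with scaling to total peak cDNAs (1.56% of all genes) and 0 with DESeq2 (1.13%). With the replicate number as a block it was 11 (2.38%). It was 0 of 21 with a minimum of 50 counts (1.01%) and 1 of 22 with sites of at least 3 cDNAs (4.06%). Exact annotated ends gave 12 of 26 (9.7%) and no filter 35 of 54 (11.2%). Leaving out 1 library moved the count in both directions. Both dyskerin libraries lay above both of their IgG libraries in CPM for 19 of 31 members, against 70.3% of all genes, and both GAR1 libraries above both of theirs for 26 of 31, against 10.5% of all genes. DESeq2 called 0 members in either comparison, and 0 genes higher with dyskerin and 72 higher with GAR1 (1.11%). Without GAR1 replicate 1, edgeR called 17 of 31 members higher with GAR1 than with IgG, against 11.9% of all genes. The members' median log2 fold change was 1.44 for dyskerin against IgG, beside 2.02 for all genes, and 5.27 for GAR1 against IgG, beside 0 for all genes. All genes include those with no cDNA in GAR1 or its IgG, such as NOP58, whose fold change there is 0. The median of all genes was 0 with TMM, total scaling and DESeq2 alike. It does not describe genes with cDNAs in these libraries, and neither do the 14.6 and 10.5% above. The TMM factors were 1.39 and 1.39 for dyskerin, 0.369 and 0.0700 for GAR1, 1.11 and 3.83 for the IgG of the dyskerin set and 1.51 and 3.10 for the IgG of the GAR1 set, and with libraries scaled to their total peak cDNAs the GAR1 median was 1.23.

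For GAR1 against IgG, the fold changes of the 6 leading members depended on the scaling. With TMM the log2 fold change was 4.79 ± 1.80 (SE) for SNORD26, 4.37 ± 1.79 for SNORD22, 4.76 ± 1.96 for SNORD27, 4.36 ± 1.83 for SNORD25, 4.61 ± 1.85 for SNORD87 and 4.24 ± 1.93 for SNORD52, each at an adjusted p of 0.311 or 0.316 (edgeR). Scaled to total peak cDNAs they were 0.79 for SNORD26, 0.37 for SNORD22, 0.99 for SNORD27, 0.59 for SNORD25, 0.60 for SNORD87 and 0.65 for SNORD52, and with DESeq2 0.50, 0.04, 0.73, 0.36, 0.29 and 0.42 in the same order. With dyskerin, the libraries of each of these 6 overlapped with those of IgG. The difference between these effects, tested as an interaction in the same edgeR fit, called 0 of 6470 genes and so 0 of 31 members, with a smallest adjusted p of 0.725 among the members.

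Dyskerin was then set against GAR1. In CPM, 30 of 31 members had both dyskerin libraries below both GAR1 libraries, against 6.48% of all genes, and SNORD27 was the exception. All genes include some with no cDNA in GAR1, such as NOP58, which cannot lie lower with dyskerin. They reduce the share of all genes here and for the lower calls below. With edgeR and TMM, 13 of 31 members (41.9%) were lower with dyskerin at an adjusted p under 0.05, against 4.37% of all genes, and 0 were higher, against 47.7% of all genes. The 13 were SNORD26, SNORD22, SNORD25, SNORD87, SNORD52, SNORD93, SNORD104, SNORD60, SNORD12C, SNORD30, SNORD65, SNORD12 and SNORD116-16. The share called was 36.6% (37 of 101) in the C/D snoRNAs of protein-coding hosts, 86.2% (25 of 29) in the H/ACA snoRNAs of lncRNA hosts and 80.0% (8 of 10) in the GAS5 snoRNAs. The calls rest on the scaling and on single libraries. DESeq2 called 0 members and 0 genes lower and put 24 of 31 members above 0. Scaling to total peak cDNAs called 7 members lower, against 2.75% of all genes, of which 1 was among the 13. Without dyskerin replicate 1 or dyskerin replicate 2 the count was 0 of 30 and 0 of 28 (0.833 and 0.932% of all genes). It was 2 of 27 without GAR1 replicate 2 (0.815%) and 24 of 31 without replicate 2 of the IgG set of dyskerin (5.02%).

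The log2 fold change of dyskerin over GAR1 was -5.16 ± 1.83 (SE) for SNORD26, -5.37 ± 1.88 for SNORD22, -3.83 ± 1.87 for SNORD27, -5.22 ± 1.91 for SNORD25, -5.97 ± 1.97 for SNORD87 and -4.92 ± 2.00 for SNORD52. The adjusted p was 0.041 or 0.042 except for SNORD27, at 0.071 (edgeR). The 5 members of largest fold change among those without overlap were SNORD116-15 (-6.77), SNORD116-24 (-6.08), SNORD116-25 (-6.0), SNORD87 (-5.97) and SNORD116-16 (-5.91). SNORD116-15, SNORD116-24 and SNORD116-25 did not pass, at adjusted p of 0.052, 0.064 and 0.069, while SNORD116-16 did at 0.048 (edgeR). In the order listed, these SNORD116 copies had 84, 67, 71 and 50 cDNAs in GAR1 replicate 2. Both dyskerin libraries together gave them 13, 19, 21 and 15. Both GAR1 libraries together gave SNORD116-15 88 cDNAs and SNORD116-16 54, so nearly all of their GAR1 cDNAs came from replicate 2. Their lack of overlap with dyskerin thus rests on very few cDNAs in GAR1 replicate 1. Each of these SNORD116 copies has another locus of nearly the same sequence, so their single values are uncertain. No member was higher with dyskerin. The median of the members was -5.35 with TMM, -1.85 when scaled to total peak cDNAs and 0.26 with DESeq2, while the median of all genes was 5.56, 6.56 and 8.57 under these scalings. Relative to all genes, the members' median was thus -10.9, -8.41 and -8.31, and 31 of 31 members lay below the median of all genes under each of the 3 scalings. Genes with cDNAs in dyskerin and none in GAR1, such as NOP58, raise that median. Any gene with many GAR1 cDNAs would tend to lie below it, so this position tells nothing particular about the members. The dyskerin libraries had 902977 and 925145 sites and the GAR1 libraries 24810 and 53445, and the part of that difference in the fold changes was not tested.

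**Figure D3:**
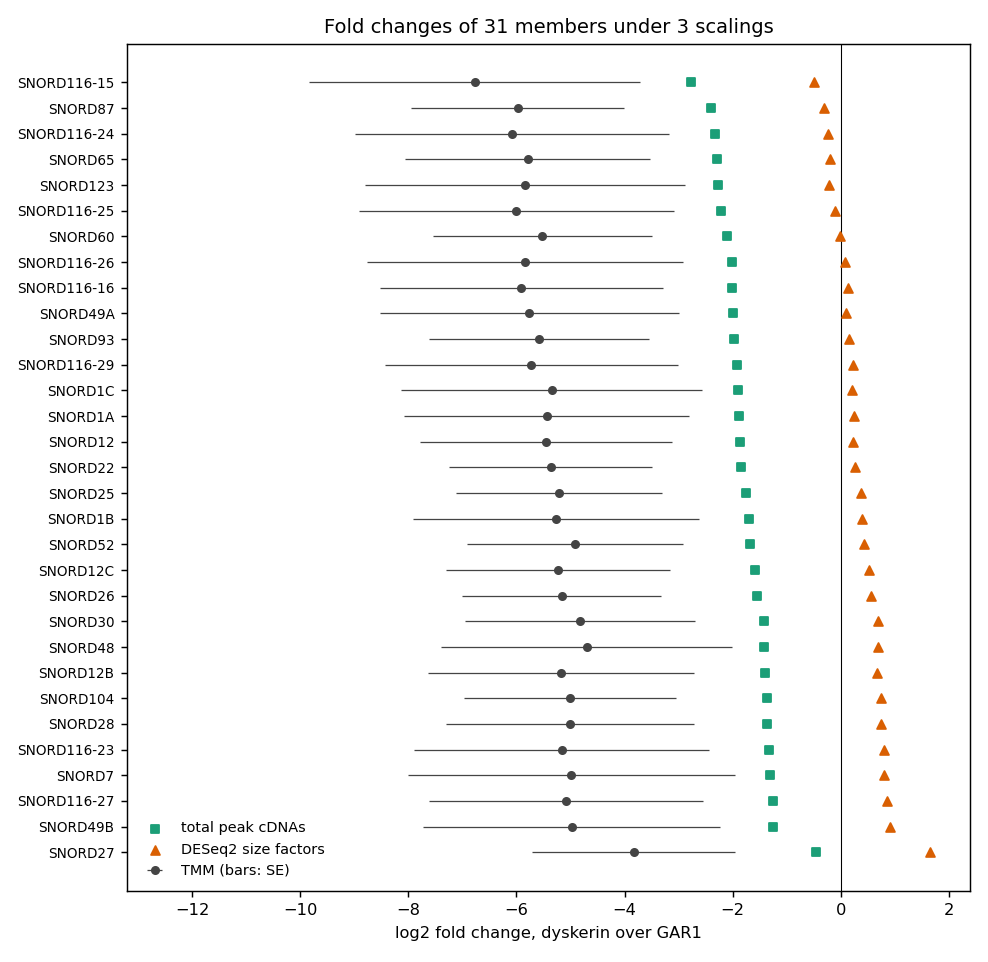
Log2 fold change of dyskerin over GAR1 for the 31 tested members, under TMM (circles, bars are SE), scaling to total peak cDNAs (squares) and DESeq2 size factors (triangles). The scaling shifts all members together, from a median of -5.35 to 0.26, and SNORD27 sits farthest right under each.

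Crosslinks did not cover the members evenly. Positions are counted from 1 at the first annotated base, with -1 for the base just upstream, and because iCount places a crosslink on the nucleotide before the start of a cDNA, a site at -1 belongs to a cDNA that begins at base 1. By cDNAs, positions -5 to -1 held 23.7 and 28.02% with dyskerin, 30.01 and 29.4% with GAR1, 41.2 and 33.8% with the IgG of the dyskerin set and 37.5 and 40% with the IgG of the GAR1 set. Positions 31 to 50 held 15.9 and 9.4% (31 to 40 and 41 to 50) in dyskerin replicate 1, 11.7 and 7.8% in dyskerin replicate 2, 11.9 and 5.1% in GAR1 replicate 1 and 10.6 and 3.7% in GAR1 replicate 2. They held 6.67 and 3.73% in the deeper IgG library of the dyskerin set, 7.5 and 6.25% in the shallow one, 6.11 and 1.57% in the deeper IgG library of the GAR1 set and 11.4 and 0% in the shallow one, so the shallow IgG libraries overlapped with GAR1. Few cDNAs lay near box D. From 15 nt before box D to the 3′ end there were 0.55 and 0.877% of cDNAs with dyskerin, 0.684 and 0.426% with GAR1, none with the IgG of the dyskerin set and 0.105 and 0% with the IgG of the GAR1 set. Among the cDNAs of members with a TGATGA match, box C itself held 1.21 to 1.84% in the antibody libraries. It held 1.73 and 6.12% with the IgG of the dyskerin set and 1.71 and 2.99% with the IgG of the GAR1 set. The shallow IgG libraries rest there on 49 and 67 cDNAs.

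**Figure D4:**
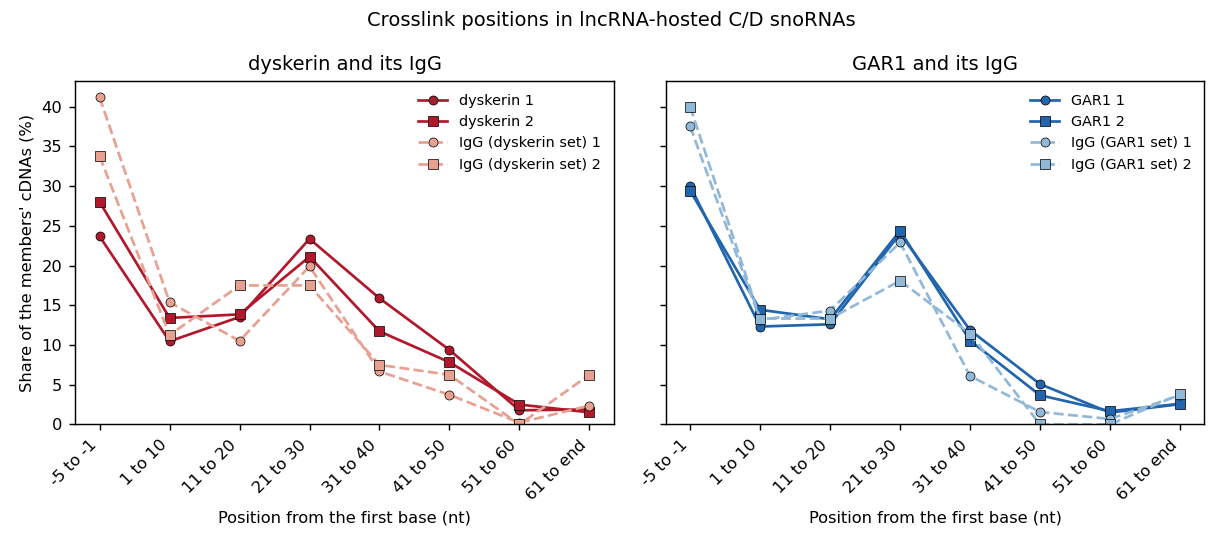
Share of the members' cDNAs (y axis, percent) by position from the first annotated base (x axis, bins in nt), for dyskerin and its IgG (left) and GAR1 and its IgG (right). Solid lines are antibody libraries and dashed lines IgG libraries. IgG lay higher at -5 to -1 (33.8 to 41.2%) than the antibodies (23.7 to 30.01%), and replicate 2 of each IgG set rests on 80 and 105 cDNAs.

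The planned test weighted members equally and used those with at least 20 cDNAs in a library. Only SNORD27, with 22 cDNAs, reached this in replicate 2 of the IgG set of dyskerin, and none did in replicate 2 of the IgG set of GAR1, which left 4 antibody and 3 IgG libraries. The share in the first 25% of the RNA, counted with the 5 upstream bases, was 48.8 and 55.8% with dyskerin, 57.7 and 60.8% with GAR1, 59.4 and 36.4% with the IgG of the dyskerin set and 69.5% in the IgG library of the GAR1 set. The means were 55.8 ± 5.06% (SD, n = 4) with the antibodies and 55.1 ± 17% (SD, n = 3) with IgG, a difference of 0.655 points (two-sided exact permutation test, p = 0.886, adjusted p = 0.914). The share past the midpoint averaged 15.3 ± 4.51% (SD, n = 4) with the antibodies and 16.1 ± 13.7% (SD, n = 3) with IgG, a difference of -0.766 points (two-sided exact permutation test, p = 0.914, adjusted p = 0.914). Both directions turned without the library that rests on SNORD27, to -8.72 and 7.09 points, and also without GAR1 replicate 2, to -1.02 and 1.28 points.

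With all members weighted by their cDNAs, which uses all 8 libraries, the first 25% of the RNA held 45.1 and 53.5% with dyskerin, 53.0 and 55.1% with GAR1, 64.8 and 58.8% with the IgG of the dyskerin set and 62.3 and 67.6% with the IgG of the GAR1 set. All 4 antibody libraries lay below all 4 IgG libraries, a difference of -11.7 points at the smallest p the design allows (two-sided exact permutation test, p = 0.0286), but the adjusted p over the 4 tests was 0.114. In C/D snoRNAs of protein-coding hosts the same share was 50.9 and 56.2% with dyskerin, 56.8 and 60.1% with GAR1, 70.9 and 74.9% with the IgG of the dyskerin set and 69.4 and 82.8% with the IgG of the GAR1 set. The antibody libraries lay below the IgG libraries there too.

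Single RNAs showed their own patterns. The bases around the leading internal sites are shown with the site in capitals, 10 bases on each side, because these are the positions at which the antibody libraries and the deeper IgG libraries can be set side by side. The sites were chosen after their values were seen and were not tested.
SNORD27 position 41: atggctgaacTttcaagtgat
SNORD93 position 39: tttatgtgctTctgctgtgat
SNORD28 position 48: ggtacaaaagTtaatagcatg
SNORD52 position 35: agtctccgatGctggtcatga
SNORD26 position 25: ttacgaactgAactctctctt
SNORD48 position 23: cccaggtaacTcttgagtgtg
In SNORD27, position 41 held 25.3 and 23.6% of the RNA's cDNAs with dyskerin, 9.2 and 3.5% with GAR1, 10.7 and 9.1% with the IgG of the dyskerin set and 3.6 and 0% with the IgG of the GAR1 set. The neighbouring position 40 held 11.5 and 7.7% with dyskerin, 15.2 and 14.6% with GAR1, 2.3 and 4.5% with the IgG of the dyskerin set and 9.4 and 0% with the IgG of the GAR1 set. The dyskerin libraries thus favoured 41 and the GAR1 libraries 40, but each IgG set with cDNAs there ran as its antibody did. The IgG of the dyskerin set had 14 and 2 cDNAs at 41 and 3 and 1 at 40. Replicate 1 of the GAR1 IgG set had 11 at 41 and 29 at 40. The preference was therefore not particular to the antibodies. The end of the RNA ran the other way, with 15.98 and 25.9% at -1 for dyskerin, 37.4 and 35.9% for GAR1, 40.5 and 18.2% for the IgG of the dyskerin set and 41.4 and 80.0% for the IgG of the GAR1 set.

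In SNORD93, position 39 held 16.3 and 10.5% with dyskerin, 12.1 and 9.9% with GAR1 and 4.9 and 4.4% in the deeper IgG libraries of the dyskerin and GAR1 sets, while position -2 held 16.1 and 23.2% with dyskerin, 21.98 and 24.4% with GAR1 and 34.1 and 42.5% in these IgG libraries. SNORD28 had 8.3 and 12.7% of its cDNAs at position 48 with dyskerin, 11.6 and 11.4% with GAR1 and none of 50 in the 1 IgG library that detected it, where -2 alone held 36%. SNORD48 had 10.7 and 12.8% at position 23 with dyskerin, 7.1 and 3.6% with GAR1 and none in any IgG library. At these sites the antibody shares lay above both deeper IgG libraries in SNORD93 and in SNORD48, which had only 10 and 48 cDNAs in these libraries, and above the 1 such library with cDNAs in SNORD28. This did not extend to the neighbouring position 38 of SNORD93, with 15.2 and 14.3% with dyskerin, 11.9 and 9.4% with GAR1 and 17.1 and 7.1% in the deeper IgG libraries.

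The 6 strongest positions of each of 14 members, by cDNAs over all libraries, were also counted. In the 13 members with cDNAs in both deeper IgG libraries, all 4 antibody shares lay above both of these at 10 of 78 positions, spread over 8 members, and below both at 21. Upstream of the first base the antibody shares lay above at 1 of 24 positions and below at 12, and inside the RNA above at 9 of 54 and below at 9. In SNORD87 of SNHG6, position 38 held 6.25 and 4.70% with dyskerin, 5.38 and 5.06% with GAR1 and 1.89 and 2.34% in the deeper IgG libraries. SNORD26 held 12.8 and 9.7% at position 25 with dyskerin, 12.1 and 11% with GAR1, 8.7 and 13.3% with the IgG of the dyskerin set and 12.7 and 11.1% with the IgG of the GAR1 set. SNORD52 was dominated by -3, with 53.7 and 56.7% with dyskerin, 56.6 and 53.2% with GAR1 and 69.8 and 63.7% in the deeper IgG libraries, and its position 35 held 14.2 and 6.5% with dyskerin, 12.3 and 11.3% with GAR1 and 3.1 and 9.6% in these IgG libraries. The leading site of SNORD87 was position 29, with 25.7 and 18.5% with dyskerin, 26.1 and 17.5% with GAR1 and 28.3 and 29.7% in the deeper IgG libraries. SNORD65 led at -4, with 37.9 and 34.1% with dyskerin, 48.7 and 38.3% with GAR1 and 38.1 and 40% in the deeper IgG libraries. The leading upstream site lay at -1 in SNORD27 and SNORD25, at -2 in SNORD26 and SNORD93, at -3 in SNORD52 and SNORD104 and at -4 in SNORD65, measured from the annotated start.

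**Figure D5:**
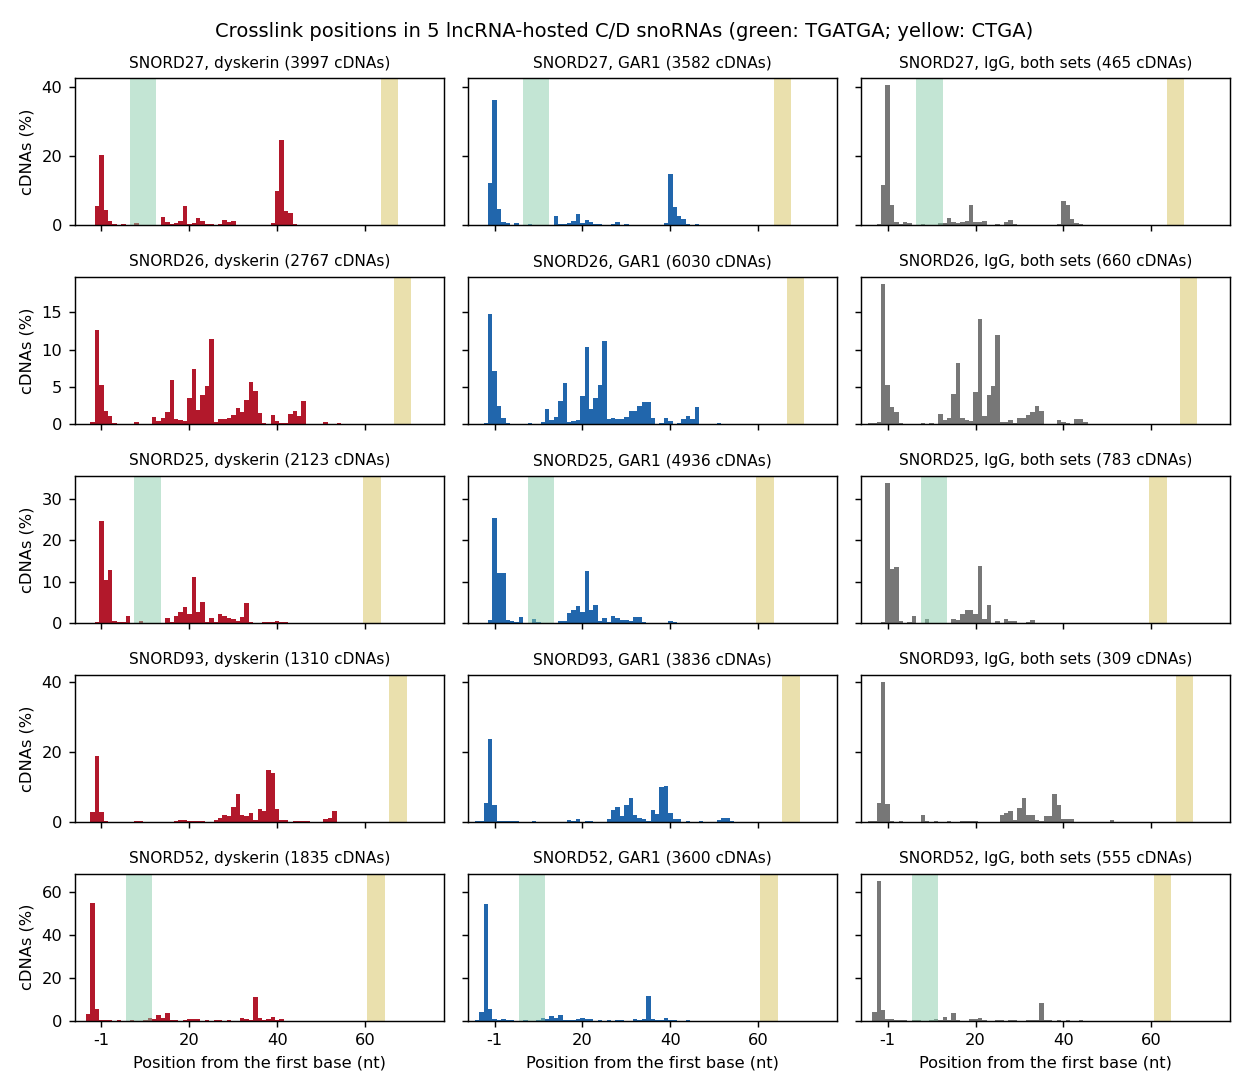
Share of an RNA's cDNAs at each position (y axis, percent; x axis, position from the first annotated base, with -1 just upstream) for SNORD27, SNORD26, SNORD25, SNORD93 and SNORD52. The 2 libraries of each antibody and all 4 IgG libraries are pooled, and green and yellow bands mark TGATGA and CTGA. SNORD27 has its tallest internal bar at position 41 with dyskerin and at position 40 with GAR1. Pooling the IgG libraries hides that each IgG set with cDNAs at these positions favoured the same one as its antibody.

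Inside the RNA bodies, T (uridine in the RNA) was the most frequent base at crosslink sites in the antibody libraries. It held 45.1 and 47.2% of cDNAs with dyskerin, 44.3 and 43.4% with GAR1, 44.2 and 35.8% with the IgG of the dyskerin set and 42.2 and 49.2% with the IgG of the GAR1 set. The same RNAs contain 29.4 to 31.7% T when weighted by their cDNAs. G was below its share of the RNA, at 16.7 and 17.2% with dyskerin and 16.7 and 17.5% with GAR1, where the RNAs contain 23.03 to 23.4%. Antibody and IgG libraries overlapped in the share at T.

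Apart from MIR31HG, the named hosts gave at most 139 cDNAs outside their short RNAs in any library. SNHG1 had 5 and 5 such cDNAs with dyskerin, 0 and 3 with GAR1 and none with IgG, so its snoRNAs made up 99.9 to 100% of the locus in every library. ZFAS1 had 99 and 139 with dyskerin, 7 and 1 with GAR1, 17 and 0 with the IgG of the dyskerin set and none with the IgG of the GAR1 set, and its snoRNAs made up 92.3 and 91.5% of the locus with dyskerin and 99.4 and 100% with GAR1. SNHG29 had 90 and 95 with dyskerin, 3 and 17 with GAR1, none with the IgG of the dyskerin set and 0 and 1 with the IgG of the GAR1 set. SNHG26 had 12 and 51 such cDNAs with dyskerin, 15 and 66 with GAR1 and none with IgG, and SNHG25 had 3 and 9 with dyskerin, 1 and 36 with GAR1, 1 and 0 with the IgG of the dyskerin set and 1 and 0 with the IgG of the GAR1 set. In CPM, both dyskerin libraries lay above both GAR1 libraries in ZFAS1 and SNHG29. In SNHG1 they did so too, with 2.95 and 2.67 against 0 and 1.52 CPM. Its 0 fell in GAR1 replicate 1, where 3 counts correspond to 5.12 CPM, above both dyskerin values, so SNHG1 cannot decide. This direction was common, as edgeR called 47.7% of all genes higher with dyskerin than with GAR1. In SNHG26 the antibodies overlapped, with 7.08 and 27.2 CPM for dyskerin and 25.6 and 33.4 for GAR1. They also overlapped in SNHG25, with 1.77 and 4.8 CPM for dyskerin and 1.71 and 18.2 for GAR1. A reversed order was therefore not shown in these hosts.

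The mRNAs of the proteins that build C/D particles were called higher with dyskerin than with GAR1 about as often as all genes. Of 12 such genes, 9 were tested and 5 were higher with dyskerin than with GAR1 at an adjusted p under 0.05 by edgeR, a share close to the 47.7% of all genes, and 0 were lower. NOP58, a core protein, had 376 and 668 cDNAs with dyskerin, 0 and 0 with GAR1, 42 and 0 with the IgG of the dyskerin set and none with the IgG of the GAR1 set. FBL, which encodes fibrillarin, had 15 and 26 cDNAs with dyskerin, none with GAR1 and 3 and 0 with the IgG of the dyskerin set. Of 6 H/ACA protein genes, DKC1 and SHQ1 were tested and both were higher with dyskerin, with 90 and 113 cDNAs for DKC1 there and none with GAR1. Against IgG, 0 of these genes passed in either comparison.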

How the data were processed

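The deposited files hold, per the labels and the methods, iCount cDNA counts at significant crosslink sites, called by the authors in each library alone (window of 3 nt on each side, 100 permutations, false discovery rate 0.05) after quality checks with FastQC 0.11.9, Cutadapt trimming and STAR 2.7.0e alignment to GRCh38 with GENCODE 27. Reads with up to 50 alignments were kept, and counts were not normalized. Clusters of sites were not used. Sites were assigned by strand to GENCODE 44 genes, with 97 RefSeq snoRNAs and scaRNAs added, 430 already present and 12 left out because their strand was not settled. A site up to 5 nt upstream of a snoRNA was counted with it. Of the sites with a clear gene label in the files, 99.3 to 99.8% fell in that gene here.

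For testing, 6470 genes reached 10 cDNAs in 2 or more libraries, and edgeR 4.0.16 was run in R 4.3.3 (quasi-likelihood, TMM, 4 groups in 1 fit with 4 residual degrees of freedom, two-sided, Benjamini-Hochberg over all genes). DESeq2 1.42.0 served as an alternative. Shares were compared with exact permutation tests over libraries. The fit was tested on simulated data. Copies were sought with blastn 2.17.0+. The labels do not say that a replicate number pairs libraries, so no block was used in the main fit. The members, lists and tests were chosen with earlier results of these data known. Named members were the 20 of highest mean CPM, the highest of every host, up to 5 of largest fold change in each direction between dyskerin and GAR1 among those without overlap, and all that passed. Sites at single positions were chosen after their values were seen. Alternatives were total scaling, other count minimums, exact ends, sites of at least 3 cDNAs, a replicate block and leaving out libraries.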

Additional observations from a re-analysis of the deposited data

How the results depend on the processing

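The counts of members called depended on the processing. For dyskerin against GAR1 the 13 of 31 lower calls (4.37% of all genes) became 7 of 31 with scaling to total peak cDNAs (2.75%), 0 of 31 with DESeq2 (0%), 6 of 21 with a minimum of 50 counts (5.11%), 2 of 26 with exact annotated ends (3.46%) and 0 of 22 with sites of at least 3 cDNAs (3.44%). Without a filter 11 of 54 were called (3.43%), of which 2 were among the 13. With the replicate number as a block the count was 0 (0.278%). The same-number correlations were -0.0852 to 0.115, and with 2 libraries a group they cannot exclude pairing. Leaving out 1 library gave 0 to 24 calls (0 without either dyskerin library, 2 without GAR1 replicate 2 and 24 without replicate 2 of the IgG set of dyskerin). The share of all genes higher with dyskerin ran between 0 and 90.5% over these settings. For dyskerin against IgG 1 of 21 members was called with a minimum of 50 counts (21.9% of all genes) and 0 under the other settings, and for GAR1 against IgG 0 to 17 when 1 library was left out (17 without GAR1 replicate 1) and 0 otherwise. The replicate block changed no other call.

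Under DESeq2 the fold changes of dyskerin over GAR1 turned to 0.56 for SNORD26, 0.26 for SNORD22, 1.66 for SNORD27, 0.38 for SNORD25, 0.43 for SNORD52 and 0.13 for SNORD116-16, and SNORD27 turned to 0.41 with sites of at least 3 cDNAs. The cause was not tested. The other 263 of 270 alternative fold changes kept their direction. These cover the 6 leading and the 5 most changed members (10 in all, as SNORD87 is in both) for GAR1 against IgG and dyskerin against GAR1, and the other named members and dyskerin against IgG were not run member by member under every setting. Over all 31 members DESeq2 put 24 above 0 for dyskerin against GAR1, and SNORD49A turned to -0.63 with DESeq2 and -0.10 with total scaling for GAR1 against IgG.

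The difference between antibody and IgG libraries kept its sign in both share results under all settings, between 0.210 and 0.801 points of peak cDNAs and between 1.97 and 4.31 points of C/D cDNAs when 1 library was left out. The difference in the first 25% of the RNA turned to -0.393 points with exact ends, -12.5 with sites of at least 3 cDNAs and -11.7 weighted by cDNAs, with -8.72 to 7.87 when 1 library was left out. The difference past the midpoint turned to 3.77, 7.25 and 6.54 under these settings and to 0.0116 with members of 20 cDNAs in each antibody library, with -5.45 to 7.09 when 1 library was left out. None of these 4 passed after adjustment. Depth limits every comparison with replicate 2 of the IgG sets, whose members held 80 and 105 cDNAs.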
